A study of Mus musculus with 9 samples.

Results

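The contrast of late with mid life rests on 6 of the 9 libraries of the study, the 3 made from skeletal stem cells of 24-month-old mice and the 3 made from those of 12-month-old mice. It was read across all 14501 genes that reached 1 TPM (a relative abundance scaled for transcript length and for the library total) in at least 3 of the 9 libraries, out of 53607 rows in the deposited table. All mice were of the inbred strain C57BL/6J, and the labels give no mutant allele and no agent for any group. The cells came from the callus of a broken femur 10 days after the injury and were sorted as mSSC, mouse skeletal stem cells, positive for the integrin ITGAV and negative for the blood markers CD45 and TER119, the endothelial marker TIE2, and THY1, 6C3 and CD105. The other 3 libraries, from 2-month-old mice sampled in the same way, entered the same model and are given beside the results. Nothing in the labels says whether the numbered samples of a group are separate animals, so the tests measure the spread among these samples, which may be technical in part. The sources used here do not give the sex.

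A fracture callus is the tissue that bridges a broken bone: progenitors in it make cartilage, which is then replaced by bone. In such tissue oxygen is scarce at first, and cells answer through the hypoxia-inducible factors, which raise glycolytic enzymes and are held down by prolyl hydroxylases such as the product of Egln1. Shortage of amino acids or stress in mitochondria is read by the integrated stress response, in which the factor ATF4 raises genes of amino acid synthesis. Inflammatory signals act through NF-kB and interferons, which raise chemokines, antigen presentation genes and their own inhibitors, among them Tnfaip3.

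The libraries were alike in overall quality: 13387 to 13813 genes reached 1 TPM, mitochondrial transcripts held 1.14% to 1.46% of the total and ribosomal protein genes 5.73% to 9.98%. Library 1 of 24 months stood apart, with 33313 rows at 0 against 29284 to 31082 in the other 8, and a mean correlation of 0.93 with the other libraries against 0.95 to 0.96. Libraries of an age differed by a median SD per gene of 0.29 at 12 and 0.34 at 24 months, against 0.24 at 2 months, in log2 units. Among the gate genes, Itgav stood at 35.96, 26.5 and 34.3 TPM at 12 months and 25.2, 48.2 and 39.7 TPM at 24 months. No library held more than 0.281 TPM of Ptprc, the gene of CD45, or more than 0.301 TPM of Tek, that of TIE2. Thy1 reached 4.27 TPM, Eng (CD105) 4.08 TPM and Enpep (6C3) 1.63 TPM. The 2 ages overlapped for each of Itgav, Thy1, Enpep and Eng, and none was called (adjusted p = 0.757, 0.833, 0.859 and 0.724).

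Between 12 and 24 months 66 genes were called, which is 0.455% of those tested, 22 of them higher at 24 months (0.152%) and 44 lower (0.303%). The threshold was a Benjamini-Hochberg adjusted p of 0.05 in limma, a linear model with a variance shared across genes, fitted to log2(TPM + 1) in all 9 libraries. Differences below are on that scale, 24 minus 12 months, with their standard error (SE), and they understate the change of low genes. All 66 called genes had 3 values per age that did not overlap. Over all kept genes 1610 (11.1%) were higher at 24 months without overlap and 891 (6.14%) lower without overlap, and the median difference was 0.07. Of the same 14501 genes 8323 had a positive and 6178 a negative difference, so counts of list members below are to be read beside these. The split of called genes leaned further to lower genes under median-of-ratios scaling, with 18 higher and 82 lower, and under quantile normalization, with 20 and 70. In the same model 105 genes (0.724%) were called between 12 and 2 months and 23 (0.159%) between 24 and 2 months; the 3 contrasts share libraries, so their values are given side by side only. The count of calls rested on single libraries: leaving out library 1, 2 or 3 of 12 months gave 6, 105 and 3 calls, and leaving out library 1, 2 or 3 of 24 months gave 12, 2 and 345. Leaving out library 1 of 2 months gave 31, and fitting only the 6 libraries gave 2.

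**Figure D1:**
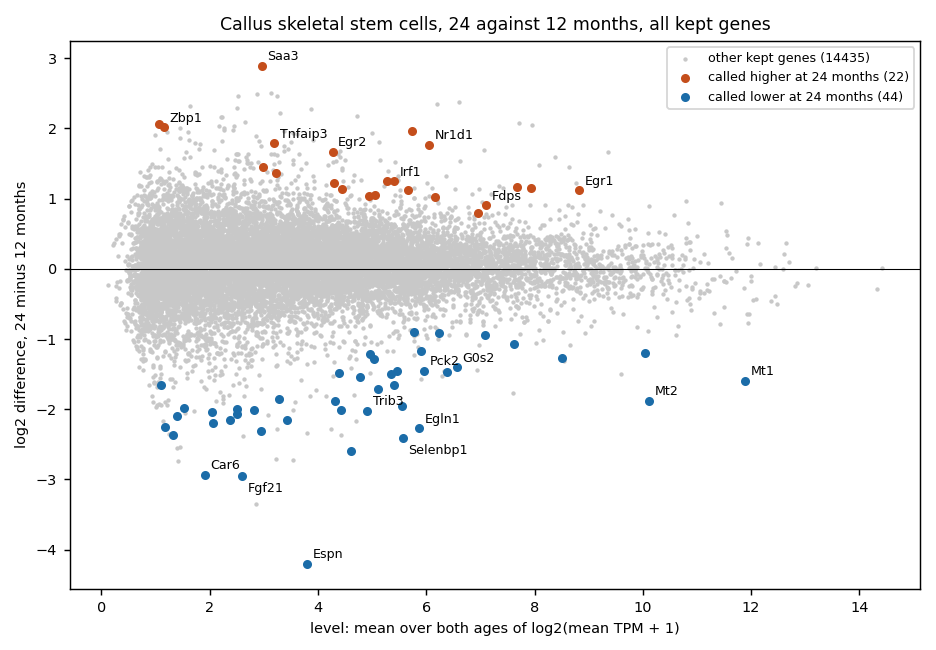
Each point is 1 of the 14501 kept genes, with its level over both ages on the horizontal axis and its log2 difference, 24 minus 12 months, on the vertical axis. The 44 called lower genes reach from Mt1 among the most abundant genes to Espn at -4.20, and the 22 called higher genes from Egr1 to Saa3 at 2.90.

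Egln1 was the only call on the list of oxygen sensors and HIF factors, and was lower at 24 than at 12 months. Of 9 kept members of that list 6 were negative and 3 positive. In each direction 1 was free of overlap, against 11.1% above and 6.14% below over all kept genes. The median was -0.20, and -0.02 without library 1 of 24 months. Egln1 encodes PHD2, the prolyl hydroxylase that marks hypoxia-inducible factors for destruction, and is itself raised by them. The gene lies at chr8:124908587-124949324 on the minus strand (GENCODE M21, GRCm38). It stood at 167, 104 and 115 TPM at 12 months and at 24.5, 27.3 and 24.4 TPM at 24 months, a difference of -2.27 ± 0.19 (adjusted p = 0.000751). The 3 libraries of 24 months lay close together and below every library of 2 months, which held 69.3, 73.9 and 58.6 TPM, and the gene was also called between 24 and 2 months (-1.37, adjusted p = 0.0307). Mgarp, Cox4i2 and Apln, also called lower, were picked after their values were seen. Mgarp, which encodes a mitochondrial protein of steroid-making cells and neurons, fell from 107, 76.4 and 85.1 TPM to 22.5, 15.01 and 32.4 TPM (-1.95 ± 0.25, adjusted p = 0.0164). Its levels at 2 months were 31.7, 37.6 and 27.3 TPM, so the 12-month libraries were the high ones. Cox4i2, the oxygen-sensitive isoform of a cytochrome oxidase subunit, fell from 354, 278 and 225 TPM to 134, 128 and 138 TPM (-1.07 ± 0.17, adjusted p = 0.0267). Apln, the apelin peptide that acts on blood vessels, fell from 66.1, 39.6 and 82.6 TPM to 14.97, 16.7 and 21.6 TPM (-1.72 ± 0.25, adjusted p = 0.0255).

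Of the list of glycolysis and hypoxia genes all 30 members passed the filter, 25 had a negative and 5 a positive difference, and 1 was called lower and 0 higher. The values of 15 members lay below 12 months without overlap and those of 2 above, against 6.14% and 11.1% of all kept genes, and the median was -0.63 against 0.07 over all. The same members had medians of 0.40 from 2 to 12 months and -0.28 from 2 to 24 months. Besides the called Egln1, the members Bnip3, Car9 and Gapdh came near the threshold and missed it, well behind Egln1. Bnip3, which drives removal of mitochondria, was at 1637, 868 and 1313 TPM at 12 months and 331, 342 and 729 TPM at 24 months (-1.5 ± 0.29, adjusted p = 0.0548). Car9, the carbonic anhydrase of hypoxic cells, was at 48.6, 37.7 and 42.7 TPM and 13.00, 4.995 and 22.98 TPM (-1.79, adjusted p = 0.0645). Gapdh, a glycolytic enzyme often used as a reference gene, was at 5856, 4784 and 4738 TPM and 2788, 2679 and 3531 TPM (-0.78 ± 0.17, adjusted p = 0.0768). None of these overlapped between the ages. The sensor Egln3 had a difference of -1.81 (adjusted p = 0.121), and its highest 24-month library overlapped the lowest of 12 months. Hif1a itself, the oxygen-labile factor, differed by -0.20 (adjusted p = 0.754) and Vegfa, the main vessel growth factor, by -0.59 (adjusted p = 0.38). Pfkfb3 and Pfkfb4, enzymes that set the pace of glycolysis, and Hk2, its first enzyme, lay on the other side at 0.50, 0.53 and 0.33. By library the median member stood -0.78, -0.93 and -0.24 from its 12-month mean at 24 months and 0.19, -0.26 and 0.03 at 12 months, so library 3 of 24 months lay as near as library 2 of 12 months. The sequence ACGTG, the core of the hypoxia response element, was in the 250 bases before the start of 15 of the 27 members with a RefSeq window (55.6%) and of 18.5% of all 27025 genes. This motif was chosen after the data were seen, and a match is not evidence of binding. Many members are on the list as known targets of the hypoxia-inducible factors, so this share is no sign of what happened in these cells.

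Gys1 and Stbd1, called lower, were picked after their values were seen and belong to no list used here. Gys1, muscle-type glycogen synthase, stood at 49.6, 35.3 and 48.3 TPM at 12 months and 10.1, 12.5 and 23.6 TPM at 24 months (-1.54 ± 0.29, adjusted p = 0.045). Stbd1, which tethers glycogen to membranes, stood at 50.6, 17.8 and 48.2 TPM and 7.91, 7.33 and 11.9 TPM (-1.88 ± 0.36, adjusted p = 0.0476). Library 2 of 12 months was the lowest of its age in both, yet above every library of 24 months. At 2 months Gys1 was at 20.7, 31.97 and 21.5 TPM and Stbd1 at 12.97, 12.1 and 8.39 TPM.

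Of the integrated stress response and amino acid synthesis list 4 genes were called lower at 24 months. Fgf21, a hormone of the fibroblast growth factor family that stressed cells release, fell from 19.4, 7.89 and 19.01 TPM to 0.0408, 1.13 and 2.57 TPM (-2.95 ± 0.46, adjusted p = 0.0255). Trib3, a pseudokinase that feeds back on ATF4, fell from 79.4, 34.4 and 62.5 TPM to 19.1, 6.57 and 16.7 TPM (-2.02 ± 0.37, adjusted p = 0.0406). Both had their lowest 12-month value in library 2, without overlap between the ages. Pck2, the mitochondrial form of phosphoenolpyruvate carboxykinase, fell from 116, 87.98 and 100.05 TPM to 27.7, 37.04 and 46.2 TPM (-1.45 ± 0.19, adjusted p = 0.0199). Phgdh, the first enzyme of serine synthesis, fell from 90.8, 83.99 and 91.2 TPM to 38.2, 35.1 and 43.3 TPM (-1.17 ± 0.20, adjusted p = 0.0284). At 2 months Pck2 stood at 56.2, 52.1 and 47.6 TPM and Phgdh at 32.4, 39.4 and 21.99 TPM, nearer to 24 than to 12 months in both genes. Eif4ebp1 and Adm2, called genes outside the list that were picked after their values were seen, moved the same way. Eif4ebp1, a brake on cap-dependent translation, fell from 744, 436 and 542 TPM to 233, 239 and 220.3 TPM (-1.28 ± 0.19, adjusted p = 0.0255), and Adm2, a peptide of the calcitonin family, fell from 18.8, 9.79 and 10.9 TPM to 3.86, 1.32 and 2.502 TPM (-2.01 ± 0.33, adjusted p = 0.0267).

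Of the 25 genes on the list of amino acid and integrated stress response genes 24 passed the filter, 20 of these had a negative difference, 4 were called lower and 0 higher. Without overlap, 12 lay below 12 months and 0 above, against 6.14% and 11.1% of all kept genes, and the median was -0.57. From 2 to 12 months the median was 0.41 and from 2 to 24 months -0.29. Asns, asparagine synthetase, was at 169.7, 82.6 and 149.8 TPM at 12 months and 33.3, 49.3 and 58.9 TPM at 24 months and missed the threshold (-1.46 ± 0.29, adjusted p = 0.0561). Atf4 itself differed by -0.47 (adjusted p = 0.15), Ddit3, the stress factor CHOP, by -0.55 (adjusted p = 0.26), and Chac1, which breaks down glutathione, by -0.49 (adjusted p = 0.399). The members on the other side were Cebpb at 0.34, Ddit4 at 0.27, Slc38a2 at 0.27 and Aldh18a1 at 0.06. The median member stood -0.75, -0.48 and -0.52 from its 12-month mean in the 24-month libraries and 0.23, -0.38 and 0.09 in those of 12 months, and the ages did not overlap.

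Promoter sequence is shown for 3 of these genes whose windows hold a match to the amino acid response element, through which ATF4 acts. The windows are the 250 bases before the gene start in RefSeq on GRCm38.p6: chr7:45615491-45615740 (minus strand) for Fgf21, chr14:55540016-55540265 (plus strand) for Pck2 and chr6:7693210-7693459 (minus strand) for Asns. Each is read 5′ to 3′ on the strand of its gene, and capitals mark a match to TGATGNAA on either strand.
Fgf21: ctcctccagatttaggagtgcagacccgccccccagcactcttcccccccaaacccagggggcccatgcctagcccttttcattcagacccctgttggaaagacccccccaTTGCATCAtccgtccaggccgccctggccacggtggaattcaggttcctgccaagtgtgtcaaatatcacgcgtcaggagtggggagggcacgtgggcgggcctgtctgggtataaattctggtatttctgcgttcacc
Pck2: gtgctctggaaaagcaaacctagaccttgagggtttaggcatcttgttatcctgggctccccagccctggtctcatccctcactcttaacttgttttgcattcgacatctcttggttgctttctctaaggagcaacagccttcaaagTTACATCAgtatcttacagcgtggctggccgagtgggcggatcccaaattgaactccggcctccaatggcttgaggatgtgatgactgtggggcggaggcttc
Asns: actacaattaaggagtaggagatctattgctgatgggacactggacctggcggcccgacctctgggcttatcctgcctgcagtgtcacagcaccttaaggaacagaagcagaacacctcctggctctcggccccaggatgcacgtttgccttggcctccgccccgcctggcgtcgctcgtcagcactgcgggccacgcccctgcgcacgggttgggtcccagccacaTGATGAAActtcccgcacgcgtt
The motif was in the window of 5 of the 23 members with one (21.7%) and of 3.9% of all genes. It was chosen after the data were seen. Many members are on the list because ATF4 is known to raise them, so this share is no sign of what happened in these cells. The windows of Trib3 and Phgdh held no match, which says nothing of sequence outside them.

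The metallothioneins, small proteins that bind zinc and copper, were called lower and were among the most abundant genes of the table. Mt1 stood at 9094, 4778 and 5993 TPM at 12 months and at 2658, 1536 and 2319 TPM at 24 months (-1.59 ± 0.26, adjusted p = 0.0267). Mt2 stood at 3030.04, 1429 and 1993 TPM and 755, 399 and 576 TPM (-1.88 ± 0.28, adjusted p = 0.0255). The 24-month levels were close to those of 2 months, 2466, 2349 and 1985 TPM for Mt1 and 719, 714 and 543 TPM for Mt2. The genes are close relatives and neighbours on chromosome 8, so how reads were split between them is uncertain. The zinc importer Slc39a8 was at 16.9, 10.02 and 39.7 TPM and 0.0728, 4.38 and 3.95 TPM (-2.71 ± 0.59, adjusted p = 0.0703), without overlap and short of the threshold. Over the 10 kept members of the list of metallothioneins and zinc transporters, 7 were negative and the median was -0.15; the exporter Slc30a1, a known target of the zinc-sensing factor MTF1, had -0.42 (adjusted p = 0.638).

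**Figure D2:**
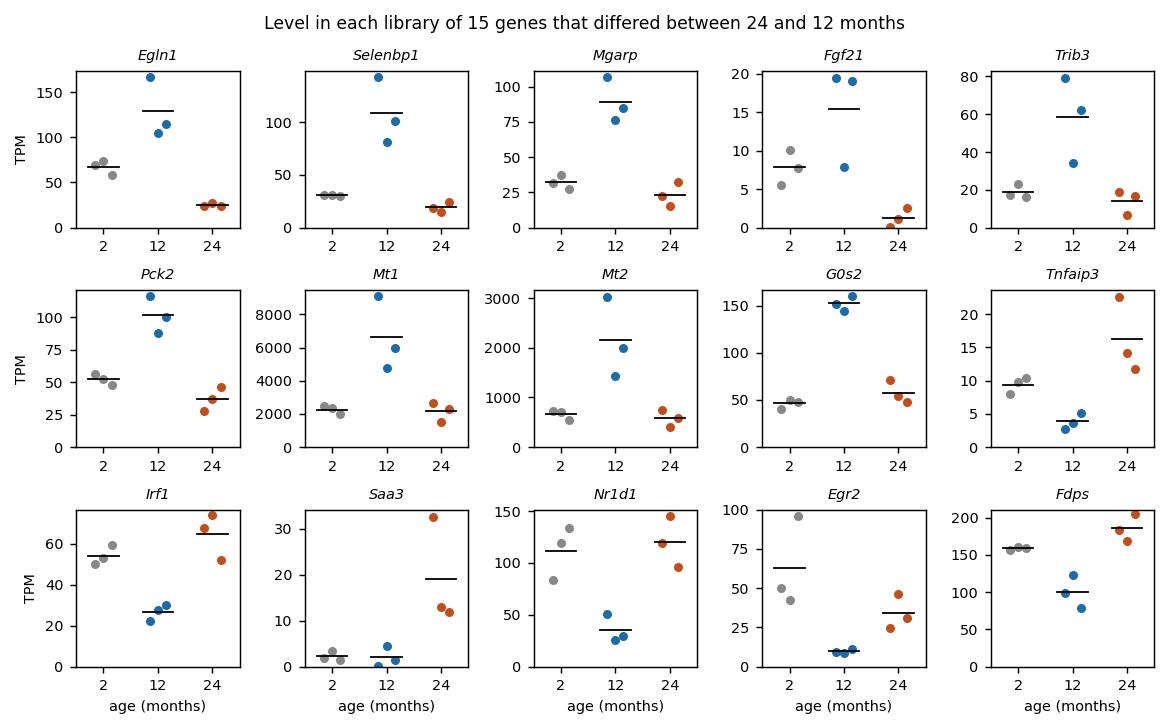
TPM in each library against age for 15 genes called between 24 and 12 months; points are libraries and bars are means of 3. In Mt1, Mt2, G0s2, Trib3 and Nr1d1 the 12-month libraries stand apart from both other ages, while Saa3 is high at 24 months only.

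The other called lower genes named by size of change did not fall into 1 pathway. Selenbp1, which oxidizes methanethiol, stood at 143, 81.5 and 101 TPM at 12 months and 18.8, 15.1 and 24.3 TPM at 24 months (-2.41 ± 0.22, adjusted p = 0.00131), and with Egln1 it was the gene called in most alternatives, 22 of 23. Espn, an actin-bundling protein of hair cell stereocilia, had the largest fall among the called genes, from 77.1, 19.6 and 61.7 TPM to 0, 1.13 and 6.65 TPM (-4.20 ± 0.65, adjusted p = 0.0255). Its 12-month libraries spread widely, with library 2 nearest to 24 months, and the difference was -4.79 without it, -5.00 without library 3 of 24 months and -3.53 without library 1 of 24 months. Selenbp1 lies at chr3:94933056-94944758 on the plus strand and Espn at chr4:152120331-152152371 on the minus strand.

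Car6, a secreted carbonic anhydrase, fell by 2.93 and Cox6a2, the muscle isoform of a cytochrome oxidase subunit, by 2.37. Both were low: Car6 had 12.96, 5.08 and 10.6 TPM and Cox6a2 4.64, 5.15 and 4.197 TPM at 12 months, and neither passed 1 TPM at 24 months. Of these ages only 12 months met the filter in Car6 and Cox6a2, which favours such a difference. Cdsn, a protein of skin cell junctions, fell from 18.05, 6.805 and 26.5 TPM to 2.42, 1.66 and 2.695 TPM (-2.31 ± 0.40, adjusted p = 0.0292). Here 2 months was as high as 12 months, at 19.9, 11.2 and 16.3 TPM. Bend5, a DNA-binding regulator, fell from 21.4, 16.8 and 24.9 TPM to 4.49, 1.996 and 6.21 TPM (-2.15 ± 0.33, adjusted p = 0.0255). Hsd17b1, which makes oestradiol, and Greb1, an oestrogen-regulated gene, had differences of -2.09 and -2.04 and stayed below 2 TPM in every 24-month library. Across the settings Hsd17b1 ran from -3.93 to -0.84 and Greb1 from -2.89 to -1.01. Arhgap27os2, transcribed from the strand opposite to Arhgap27, had a difference of -2.06; the sources used here do not say whether counting used strand.

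Several called lower genes outside that rule, picked after their values were seen, act in lipid and redox metabolism or bind RNA. G0s2, an inhibitor of the fat-splitting lipase ATGL, stood at 40.5, 50.5 and 47.8 TPM at 2 months, 152, 145 and 161 TPM at 12 months and 71.2, 54.3 and 47.6 TPM at 24 months (-1.40 ± 0.17, adjusted p = 0.012). Mgst2, a membrane glutathione transferase, fell from 30.3, 51.3 and 44.6 TPM to 7.07, 9.77 and 11.98 TPM (-2.02 ± 0.25, adjusted p = 0.012). Rbp4, the carrier of retinol, fell from 1777, 1232 and 1746 TPM to 692, 844 and 533 TPM (-1.21 ± 0.20, adjusted p = 0.0273). The ages did not overlap in any of these 3 genes. Qk encodes the splicing regulator Quaking. It stood at 86.99, 64.1 and 72.5 TPM at 2 months, 68.8, 56.6 and 99.02 TPM at 12 months and 20.9, 28.5 and 18.9 TPM at 24 months, so only the oldest libraries were low; it was called against 12 months (-1.65 ± 0.23, adjusted p = 0.0215) and against 2 months (adjusted p = 0.0307). Cirbp, an RNA-binding protein induced by cold, fell from 99.4, 130.1 and 192 TPM to 51.8, 40.6 and 53.3 TPM (-1.47 ± 0.22, adjusted p = 0.0255). Of the 57 called genes with a gene-like name, 12 overlap another kept gene on the opposite strand, among them Gys1 with Ruvbl2, Nr1d1 with Thra and Ctsw with Fibp, so reads of such pairs may have been shared.

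Tnfaip3, Zfp36, Arid5a and Saa3 were called higher at 24 months. Tnfaip3, which encodes A20, an enzyme that shuts NF-kB signalling off, rose from 2.79, 3.69 and 5.19 TPM to 22.6, 14.2 and 11.7 TPM (1.79 ± 0.29, adjusted p = 0.0267). Its 2-month libraries held 7.97, 9.82 and 10.5 TPM, between the other ages without overlap. Zfp36, tristetraprolin, which destroys the messengers of cytokines, rose from 174, 144 and 168 TPM to 275, 477 and 357 TPM (1.15 ± 0.20, adjusted p = 0.0273). Arid5a, which protects the messenger of interleukin 6, rose from 23.97, 20.1 and 27.2 TPM to 74.9, 58.8 and 43.4 TPM (1.25 ± 0.21, adjusted p = 0.0267). At 2 months Zfp36 stood at 541, 429 and 549 TPM and Arid5a at 46.3, 47.7 and 52.5 TPM, so for both 12 months was the low age. Saa3, an acute-phase protein made at sites of inflammation, rose from 0.0741, 4.47 and 1.52 TPM to 32.6, 12.96 and 11.99 TPM (2.90 ± 0.54, adjusted p = 0.0441), with 1.96, 3.34 and 1.45 TPM at 2 months, and the difference was 2.3 without library 1 of 12 months. Saa3 lies at chr7:46711998-46715700 on the minus strand.

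Of the list of NF-kB targets and feedback genes 22 of 23 passed the filter, 19 had a positive and 3 a negative difference, and 1 was called higher and 0 lower. The values of 14 lay above 12 months without overlap, and of 0 below, against 11.1% and 6.14% of all kept genes. The median was 0.80, beside -0.41 from 2 to 12 months and 0.23 from 2 to 24 months. Bcl3, a co-regulator of NF-kB, was at 36.9, 31.8 and 35.5 TPM at 12 months and 121, 62.2 and 64.3 TPM at 24 months (1.16 ± 0.23, adjusted p = 0.0561). Nfkbiz, another nuclear co-regulator, was at 43.9, 37.8 and 49.2 TPM and 80.1, 84.2 and 67.4 TPM (0.81 ± 0.18, adjusted p = 0.0703). Both missed the threshold without overlap between the ages. Nfkbia, the main inhibitor IkB-alpha, was at 453, 418 and 427 TPM and 1074, 839 and 494 TPM (0.82 ± 0.23, adjusted p = 0.154). The subunit Nfkb1 and the enzyme Ptgs2 lay at -0.07 and -0.31. By library the median member stood 1.15, 0.87 and 0.44 above its 12-month mean at 24 months and at -0.03, -0.08 and 0.08 at 12 months, so library 3 was the least raised of the oldest age and still above each 12-month library.

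The windows of Tnfaip3 and Irf1 are shown because each holds at least 1 match to the NF-kB site and both genes were called higher. They lie at chr10:19015411-19015660 (minus strand) and chr11:53769764-53770013 (plus strand), 250 bases before the first RefSeq start of each gene on GRCm38.p6, and capitals mark the matches. Each gene has 1 further RefSeq window, not shown, and neither of those held a match.
Tnfaip3: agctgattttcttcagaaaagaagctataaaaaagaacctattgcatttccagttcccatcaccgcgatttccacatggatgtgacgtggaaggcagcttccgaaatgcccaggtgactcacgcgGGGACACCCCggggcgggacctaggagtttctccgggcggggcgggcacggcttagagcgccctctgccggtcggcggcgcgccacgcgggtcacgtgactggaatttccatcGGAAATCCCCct
Irf1: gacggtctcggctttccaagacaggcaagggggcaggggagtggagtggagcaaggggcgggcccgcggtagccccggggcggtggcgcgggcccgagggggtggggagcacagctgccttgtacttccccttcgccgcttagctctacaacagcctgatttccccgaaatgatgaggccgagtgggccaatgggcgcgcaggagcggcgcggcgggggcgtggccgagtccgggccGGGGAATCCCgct
A match to the NF-kB site was in the window of 10 of 17 members of the list (58.8%) and of 8.2% of all genes. Many members are on the list because NF-kB is known to bind near them, so this share is no sign of what happened in these cells.

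Chemokines, which call immune cells, were mostly higher at 24 months, and none was called. Of 25 genes 18 passed the filter, and 15 had a positive and 3 a negative difference. In the higher direction 6 did not overlap and in the lower 0, against 11.1% and 6.14% of all kept genes. The median of the list was 1.29. It was 0.85 without library 1 of 24 months and 1.76 without library 3 of that age, when 6 members were called higher. Cxcl5, a neutrophil attractant, was at 0.765, 4.91 and 4.04 TPM at 12 months and 13.9, 22.1 and 24.96 TPM at 24 months (2.47 ± 0.52, adjusted p = 0.0645). Cxcl1, of the same family, was at 189.9, 264 and 231 TPM and 997, 736 and 326 TPM (1.45 ± 0.33, adjusted p = 0.0772). Ccl2, the monocyte attractant, was at 13.2, 78.00 and 39.9 TPM and 295, 247 and 87.96 TPM (2.38 ± 0.68, adjusted p = 0.159). In Cxcl1 and Ccl2 library 3 of 24 months was far below the other 2 of its age and just above the highest of 12 months. Cxcl12, the factor that holds blood stem cells in marrow, was at 5.23, 28.2 and 24.3 TPM and 45.2, 85.4 and 48.9 TPM (1.81 ± 0.53, adjusted p = 0.17). Among cytokines that act on osteoclasts, the cells that resorb bone, 11 of 15 kept members were positive, with a median of 0.45 and none called; the median was 0.18 without library 1 of 24 months and 0.91 without library 3, when 1 was called higher. Csf1, their main growth factor, was at 2.85, 5.21 and 5.87 TPM and 15.5, 22.5 and 9.06 TPM (1.52 ± 0.36, adjusted p = 0.0952). Il6 was at 10.3, 16.7 and 9.97 TPM and 33.2, 38.3 and 31.2 TPM (1.43 ± 0.40, adjusted p = 0.151). The osteoclast inducer Tnfsf11 (RANKL) and its decoy Tnfrsf11b differed by 0.66 (adjusted p = 0.42) and 0.44 (adjusted p = 0.499).

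Interferon-stimulated genes were higher on balance, with 2 called. Irf1, the factor that starts the answer to interferon gamma, rose from 22.1, 27.6 and 29.9 TPM to 67.6, 74.1 and 52.3 TPM (1.25 ± 0.18, adjusted p = 0.0255). At 2 months it stood at 50.3, 52.8 and 59.5 TPM, again nearer to the oldest age. Zbp1, a sensor of left-handed nucleic acids that can start cell death, was near 0 at 12 months, with 0, 0 and 0.262 TPM, and at 4.81, 4.28 and 1.72 TPM at 24 months (2.02 ± 0.38, adjusted p = 0.0441). Of the 33 genes of the list 27 passed the filter, 25 were positive and 2 negative, and the median was 0.66. Without overlap 11 lay above 12 months and 0 below, against 11.1% and 6.14% of all kept genes. Isg15, a ubiquitin-like protein, was at 6.53, 6.07 and 3.45 TPM and 11.8, 15.03 and 8.08 TPM (0.99, adjusted p = 0.227). Oas1a, which makes the activator of an antiviral RNase, was at 0.103, 0.311 and 0.131 TPM and 2.13, 1.97 and 1.08 TPM (1.19, adjusted p = 0.118). The levels of most of these genes were low, and the negative members were Ifit3 at -0.26 and Ifit2 at -0.25. Of 12 and 24 months, only the 24-month libraries reached the 1 TPM of the filter in Zbp1 and Oas1a. Such a filter favours a difference of this direction, and both genes are in the counts of positive members and of members without overlap. The sequence GAAANNGAAA, part of the interferon response element, was in the window of 11 of 21 members (52.4%) and of 3.5% of all genes. It was in 2 of 14 windows (14.3%) of the immunoproteasome and class I list. Many interferon-stimulated genes are known for such sites, so the first share is no sign of what happened in these cells.

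No gene of antigen presentation was called. On the list of immunoproteasome and class I genes 14 of 15 kept members were positive, and the median was 0.57. Without overlap 8 lay above 12 months and 1 below, against 11.1% and 6.14% of all kept genes. Psmb8, a subunit that immune signals swap into the proteasome, was at 1.96, 3.23 and 1.99 TPM at 2 months, 2.97, 10.4 and 5.41 TPM at 12 months and 15.7, 32.6 and 14.4 TPM at 24 months (1.63 ± 0.41, adjusted p = 0.102). The member below was H2-T23, a non-classical class I gene, at 69.00, 54.5 and 47.3 TPM and 36.3, 30.2 and 24.7 TPM (-0.88 ± 0.20, adjusted p = 0.0772). The 27 genes of the constitutive proteasome had a median of 0.15. On the class II list 6 of 7 kept members were negative with a median of -0.39, which ran from -0.65 to -0.19 with 1 library left out. H2-Ab1, the beta chain of a class II molecule, was at 422, 236 and 402 TPM at 12 months and 110.3, 63.5 and 140.1 TPM at 24 months (-1.77 ± 0.38, adjusted p = 0.0667). Its partner chain H2-Aa stayed at or below 3.51 TPM and the invariant chain Cd74 at or below 2.16 TPM in every library. The sources used here do not say how reads shared by similar class II sequences were assigned, so the level of H2-Ab1, and its difference, are uncertain.

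Of the immediate early genes, which cells switch on within minutes of a stimulus, 3 were called higher at 24 than at 12 months. Egr1, a zinc finger factor, was at 1085, 1047 and 1271 TPM at 2 months, 293, 282 and 331 TPM at 12 months and 517, 866 and 638 TPM at 24 months (1.12 ± 0.18, adjusted p = 0.0267). Egr2, of the same family, was at 50.1, 42.7 and 95.7 TPM, 9.31, 8.49 and 11.2 TPM and 24.3, 46.2 and 31.2 TPM (1.67 ± 0.30, adjusted p = 0.0379). The 3 ages did not overlap for Egr1, while library 2 of 24 months entered the range of 2 months for Egr2. Csrnp1, a nuclear protein induced by growth signals that is not on the list, rose from 29.6, 32.1 and 38.9 TPM to 83.96, 75.8 and 62.7 TPM (1.12 ± 0.17, adjusted p = 0.0255), and Rcan1, an inhibitor of calcineurin, from 116, 125 and 164 TPM to 304, 354 and 255 TPM (1.17 ± 0.18, adjusted p = 0.0255). Of the 32 genes on the list, all kept, 27 were positive, and 3 were called higher and 0 lower. Without overlap 12 lay above 12 months and 1 below, against 11.1% and 6.14% of all kept genes. The median was 0.38, beside -0.84 from 2 to 12 months and -0.54 from 2 to 24 months. The other called member was Zfp36. Fos and Jun, the partners of the factor AP-1, differed by 0.31 (adjusted p = 0.615) and 0.17 (adjusted p = 0.706). These genes also answer to handling and enzyme digestion of tissue, and the sources used here do not give times of digestion or sorting; the part of handling was not tested.

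The CArG box, through which serum response factor acts, was in the window of 3 of 26 members of the immediate early list (11.5%) and of 1.6% of all genes. TGACGTCA, the full cAMP response element, was likewise in 3 of 26 and in 1.8% of all. Many members are on the list because signals through such sites are known to raise them. Neither share is a sign of what happened in these cells.

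Of the clock genes 1 was called. Nr1d1, which encodes the clock repressor REV-ERB-alpha, stood at 83.1, 119 and 134 TPM at 2 months, 51.04, 26.1 and 29.7 TPM at 12 months and 119, 146 and 95.96 TPM at 24 months (1.77 ± 0.26, adjusted p = 0.0255). Its paralog Nr1d2 was at 7.97, 6.62 and 9.62 TPM at 12 months and 15.8, 21.8 and 14.4 TPM at 24 months (1.01 ± 0.24, adjusted p = 0.0952). The repressor Cry1 lay on the other side at 21.8, 18.3 and 22.3 TPM and 12.6, 12.6 and 9.41 TPM (-0.81 ± 0.22, adjusted p = 0.13). Of 17 kept clock genes 8 were positive and 9 negative, with a median of -0.06. Without overlap 3 lay above and 3 below, against 11.1% and 6.14% of all kept genes. Arntl, the clock activator BMAL1 whose gene REV-ERB-alpha represses, differed by 0.07 (adjusted p = 0.919). The sources used here do not give the hour at which callus was taken, so the hour and the age cannot be told apart for these genes.

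Genes of the cholesterol synthesis list were higher at 24 months in every one of the 21 kept members, out of 22. Fdps, which makes farnesyl pyrophosphate, was the only one called, at 98.3, 123 and 78.9 TPM at 12 months and 183, 169 and 205 TPM at 24 months (0.90 ± 0.17, adjusted p = 0.0406). The values of 7 members lay above 12 months without overlap, against 11.1% of all kept genes. The median of the list was 0.57 against 0.07 over all kept genes. From 2 to 12 months the median was -0.87 and from 2 to 24 months -0.27. Mvd, an enzyme of the mevalonate branch, was at 10.3, 10.7 and 12.5 TPM and 21.3, 23.2 and 24.6 TPM (0.99 ± 0.20, adjusted p = 0.0575). Its 24-month levels were nearer to those of 2 months, 18.6, 22.9 and 28.2 TPM. The master factor Srebf2 differed by 0.30 (adjusted p = 0.443). TCACNCCAC, a form of the sterol response element chosen after the data were seen, was in the window of 1 of 14 members (7.1%) and of 1.2% of all genes. Many members are known to be raised through such elements, so this share is no sign of what happened in these cells. Fatty acid genes had a median of 0.01, with 12 positive and 12 negative.

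**Figure D3:**
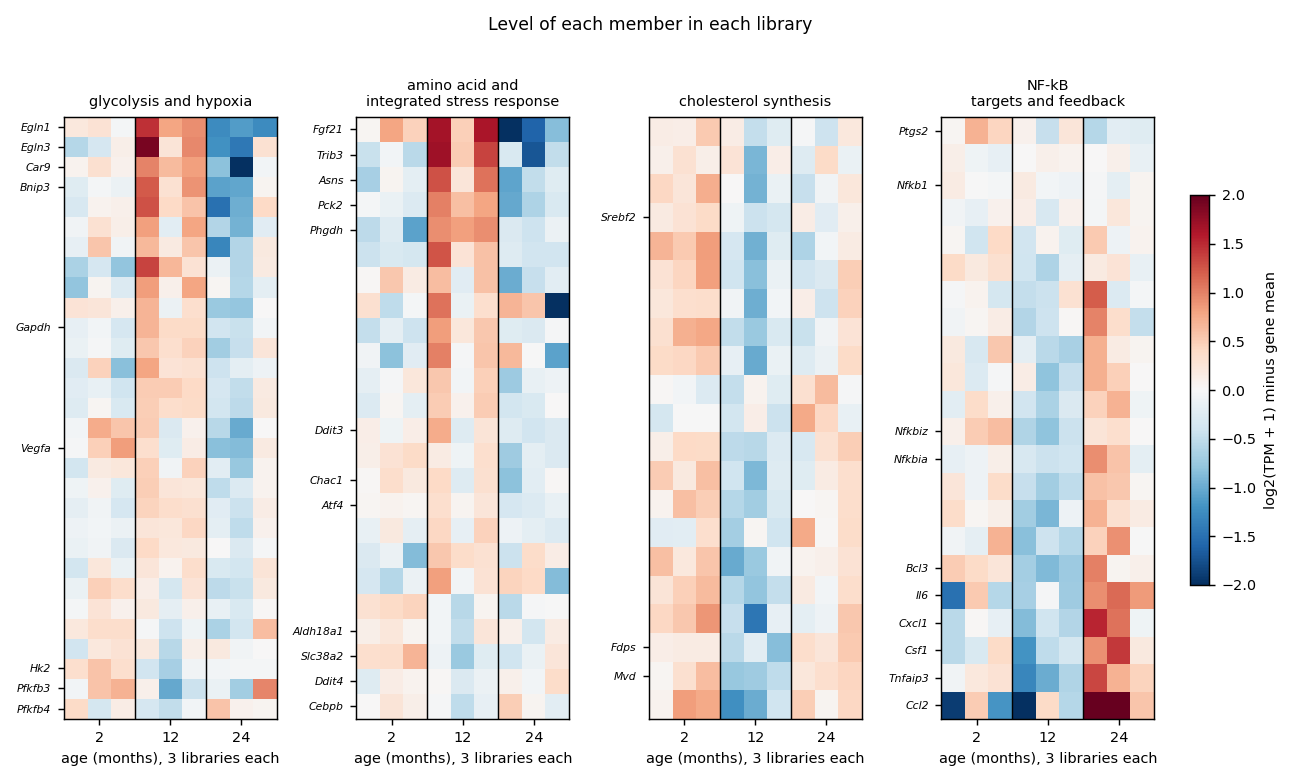
Log2(TPM + 1) of every kept member of 4 lists in each of the 9 libraries, as the difference from the gene's mean over the 9, with rows ordered by the difference between 24 and 12 months and colours cut at 2 on either side; names are given for the members described in the text. The 12-month columns are high for most hypoxia and stress response members and low for most cholesterol and NF-kB members, and library 3 of 24 months is paler than libraries 1 and 2 for the NF-kB members at the foot of the panel.

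Other called higher genes shared no list with each other. Creld2, a chaperone released under stress of the reticulum, rose from 87.8, 93.2 and 96.3 TPM to 174, 173 and 139.9 TPM (0.80 ± 0.14, adjusted p = 0.0292). Alg3, a mannosyltransferase of protein glycosylation, rose from 23.05, 22.7 and 20.6 TPM to 49.4, 49.02 and 42.04 TPM (1.05 ± 0.17, adjusted p = 0.0259), and it overlaps Eef1akmt4 on the opposite strand. Of the unfolded protein response list 14 of 20 members were positive and 1 was called, with a median of 0.22. In the higher direction 7 did not overlap and in the lower 1, against 11.1% and 6.14% of all kept genes. The central chaperone Hspa5 (BiP) differed by 0.21 (adjusted p = 0.612). Oxct1, which lets cells burn ketone bodies, rose from 42.6, 52.03 and 52.6 TPM to 94.3, 85.6 and 125 TPM (1.02 ± 0.17, adjusted p = 0.027). Bcs1l, an assembly factor of respiratory complex III, rose from 4.37, 5.49 and 4.39 TPM to 18.3, 12.9 and 11.1 TPM (1.37 ± 0.24, adjusted p = 0.0285). Oxidative phosphorylation genes had a median of only 0.12, with 27 of 34 positive and none called. Rnpep, an aminopeptidase, Tmem150a, a membrane protein, and Tmem123, another, completed the named higher genes with differences of 1.23, 1.14 and 1.04. In each of these 3 genes the ages did not overlap.

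Cell cycle genes were higher at 24 months on balance and none was called. Of the 25 mitosis genes 23 were positive, 9 lay above 12 months without overlap and 0 below, and the median was 0.60. Of the 28 DNA replication genes 24 were positive, 9 lay above without overlap and 0 below, and the median was 0.38. Over all kept genes 11.1% lay above without overlap and 6.14% below. Plk1, a kinase of mitosis, was at 8.05, 17.4 and 11.5 TPM at 12 months and 31.5, 21.6 and 24.6 TPM at 24 months (1.06 ± 0.36, adjusted p = 0.207). Mcm3, part of the replicative helicase, was at 7.93, 12.1 and 7.71 TPM and 23.01, 16.8 and 18.04 TPM (1.00 ± 0.34, adjusted p = 0.213). Mki67, the usual proliferation marker, was at 3.06, 6.13 and 4.78 TPM and 5.79, 4.53 and 6.78 TPM (0.27 ± 0.30, adjusted p = 0.726), and the ages overlapped. The median mitosis gene lay at -0.57, 0.46 and 0.06 in the 12-month libraries and 0.54, 0.46 and 0.68 in those of 24 months, so library 2 of 12 months was as high as the oldest ones.

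Genes of senescence and growth arrest were not called. Cdkn2a, which encodes p16 and p19ARF and rises in many aged tissues, did not pass the filter and held 0, 0 and 0.281 TPM at 2 months, 0.282, 1.71 and 0.805 TPM at 12 months and 0.803, 2.08 and 0.707 TPM at 24 months. Its neighbour Cdkn2b was at 21.2, 14.5 and 14.7 TPM, 25.3, 32.2 and 32.98 TPM and 53.9, 51.5 and 34.8 TPM, a rising order of the ages without overlap; the last step missed the threshold (0.60 ± 0.22, adjusted p = 0.253), while the whole span from 2 to 24 months was 1.42 (adjusted p = 0.0355). Cdkn1a, which encodes p21, was at 1193, 634 and 816 TPM and 559, 781 and 613 TPM with overlap (-0.40 ± 0.22, adjusted p = 0.423). Of 21 kept members of the list 18 were positive with a median of 0.33, and its highest members were Cxcl5, Ccl2, Cxcl2, Mmp3, Cxcl1 and Il6, which encode secreted factors and were not called. The 20 targets of p53 had a median of 0.21, with 16 positive and none called.

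Skeletal lineage genes showed no call in either direction. On the chondrocyte list all 28 members passed the filter, and 17 were negative and 11 positive. No member was free of overlap, against 11.1% above and 6.14% below over all kept genes. The median of the list was -0.25. It was -0.06 without library 2 of 24 months and -0.48 without library 3 of that age, when 5 members were called lower. Col2a1, the main collagen of cartilage, was at 23609, 18103 and 24377 TPM at 12 months and 15166, 13906 and 27506 TPM at 24 months (-0.28 ± 0.27, adjusted p = 0.681). Sox9, the master factor of cartilage, was at 366, 288 and 336 TPM and 259, 214 and 386 TPM (-0.24 ± 0.21, adjusted p = 0.647). In both genes library 3 of 24 months was the highest of the 6. The same list had medians of -0.56 from 2 to 12 months and -0.72 from 2 to 24 months.

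Hypertrophic chondrocyte genes had a median of 0.21 over 13 members. Ihh, the hedgehog ligand of maturing cartilage, was at 148, 27.9 and 101 TPM and 128, 141 and 126 TPM (0.80 ± 0.46, adjusted p = 0.461), and the low value was library 2 of 12 months. Of 20 kept osteoblast genes 17 were positive and the median was 0.41. Without overlap 1 lay above and 1 below, against 11.1% and 6.14% of all kept genes. Bglap, osteocalcin, was at 9.62, 0.6405 and 5.13 TPM at 12 months and 29.5, 25.8 and 4.65 TPM at 24 months (1.81 ± 0.68, adjusted p = 0.255). Runx2 and Sp7, the factors that commit cells to bone, differed by 0.38 (adjusted p = 0.579) and 0.41 (adjusted p = 0.601). Stem and progenitor genes had 15 of 21 kept members positive and a median of 0.25. Of these members 5 lay above without overlap, against 11.1% of all kept genes. The 2 highest, Acta2 and Cxcl12, also mark smooth muscle and marrow stroma. Pdgfra and Prrx1, general markers of such progenitors, lay at 0.02 and 0.23.

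Matrix genes were shifted upward more often than not, as were all kept genes, with 8323 of 14501 positive, and none was called. Over all kept genes 11.1% lay above 12 months without overlap and 6.14% below. Of 26 matrix proteases and inhibitors 22 were positive, 8 lay above 12 months without overlap and 0 below, and the median was 0.46. Adamts4, an aggrecanase, was at 2.37, 3.85 and 6.48 TPM at 12 months and 18.5, 16.9 and 9.47 TPM at 24 months (1.63 ± 0.34, adjusted p = 0.0634). Mmp14, a collagenase of the cell surface, and Adamts2, which trims procollagen, had 0.91 (adjusted p = 0.121) and 1.08 (adjusted p = 0.163), both without overlap. Of 17 collagens 13 were positive with a median of 0.48 and 1 without overlap. Col1a1, the main collagen of bone, was at 2347, 2259 and 2743 TPM and 4111, 4178 and 2579.7 TPM (0.54 ± 0.20, adjusted p = 0.246). Of 30 matricellular proteins and small proteoglycans 8 lay above and 2 below without overlap. Tnc, tenascin C, had 1.00 (adjusted p = 0.0687) and Aspn, asporin, 0.90 (adjusted p = 0.0976), while Mgp, an inhibitor of mineral deposition, had -0.51 (adjusted p = 0.267) and Fn1, fibronectin, -0.32 (adjusted p = 0.405).

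On the Wnt, BMP and TGF-beta, hedgehog, Notch, FGF and IGF lists the only gene called was Fgf21. The Wnt list had a median of 0.30 over 28 kept genes, and Sfrp2, a secreted Wnt inhibitor, had 1.33 (adjusted p = 0.277). The BMP and TGF-beta list had a median of 0.23 over 40; its ligand Tgfb3 had 0.90 (adjusted p = 0.0721) and the BMP inhibitor Chrdl2 -1.35 (adjusted p = 0.121). The Notch list had a median of 0.58 over 10, and its target Hes1 was at 106, 70.2 and 61.2 TPM at 12 months and 153, 182 and 154 TPM at 24 months (1.07 ± 0.21, adjusted p = 0.0548). On the IGF list, with a median of -0.12, the binding proteins Igfbp5 and Igfbp4 had 1.15 (adjusted p = 0.0931) and 0.91 (adjusted p = 0.187). The imprinted pair H19 and Igf2 lay below, at -0.83 (adjusted p = 0.161) and -0.73 (adjusted p = 0.501). The 3 ages of Igfbp5, with 8.05, 6.17 and 13.1 TPM at 2 months, 7.56, 9.97 and 7.39 TPM at 12 months and 22.4, 20.2 and 16.2 TPM at 24 months, set the oldest apart from both others.

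**Figure D4:**
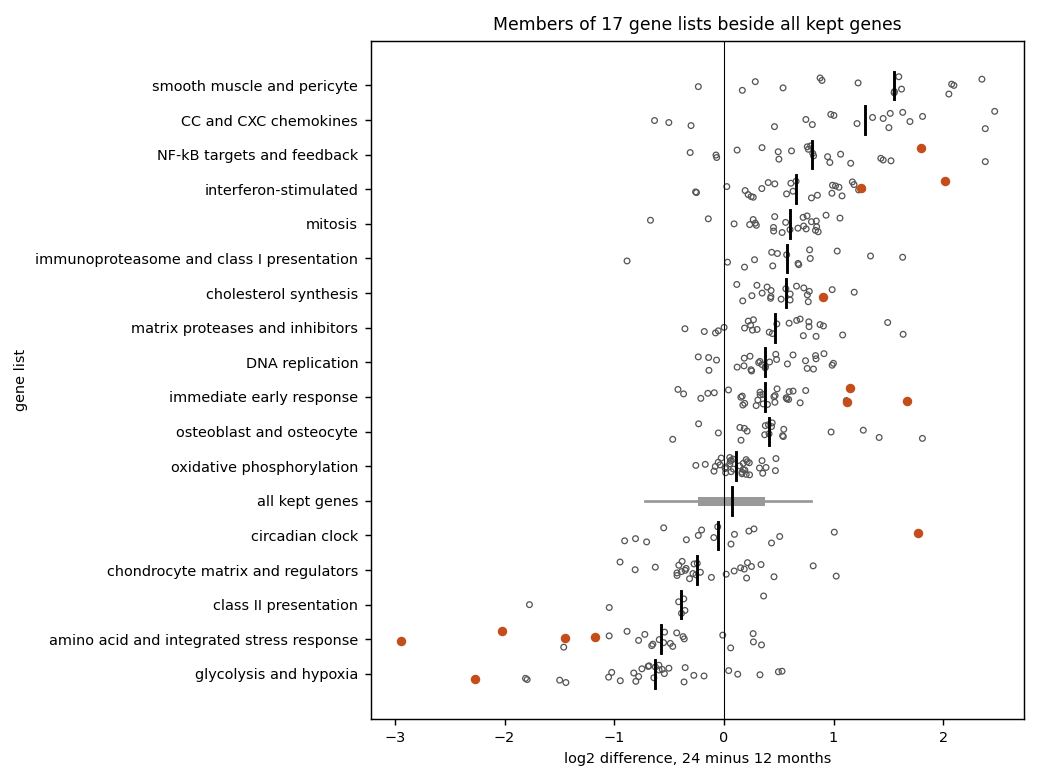
Log2 difference, 24 minus 12 months, of each kept member of 17 lists; filled points are called, upright bars are medians, and for all kept genes the thick and thin lines hold the middle 50% and 90%. The medians run from -0.63 for glycolysis and hypoxia to 1.55 for smooth muscle and pericyte markers, against 0.07 over all kept genes.

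Markers of smooth muscle and pericytes, contractile cells around vessels that the gate does not name, had a median of 1.55 over 15 kept members of 18, the highest of the lists. Without library 1 of 12 months it was 0.96, below the chemokine list at 1.07 and the skeletal muscle list at 1.002. Of the 15 kept members 14 were positive and none was called. The values of 7 lay above 12 months without overlap, against 11.1% of all kept genes. Acta2, smooth muscle actin, which progenitors and myofibroblasts also make, was at 29.98, 263 and 123 TPM at 12 months and 391, 644 and 283 TPM at 24 months (2.05 ± 0.63, adjusted p = 0.182). Des, desmin, was at 3.34, 6.89 and 3.03 TPM and 19.4, 18.1 and 9.33 TPM (1.62 ± 0.35, adjusted p = 0.0684). Myh11, the myosin that defines smooth muscle, was at 0.491, 3.65 and 2.15 TPM and 14.4, 15.5 and 5.75 TPM (2.10 ± 0.54, adjusted p = 0.115). The summed level of the list was 546, 749.5 and 791 TPM at 2 months, 504, 1422 and 872 TPM at 12 months and 2284, 3095 and 1605 TPM at 24 months, so the ages did not overlap between 12 and 24 months, and libraries 1 of 12 months and 3 of 24 months were the low ones of their ages. Library 3 of 24 months was also the lowest of its age for the chemokine, NF-kB, interferon and class I lists. In bulk libraries more cells of a type and more RNA per cell cannot be told apart, and the part of these markers in the other results was not tested.

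**Figure D5:**
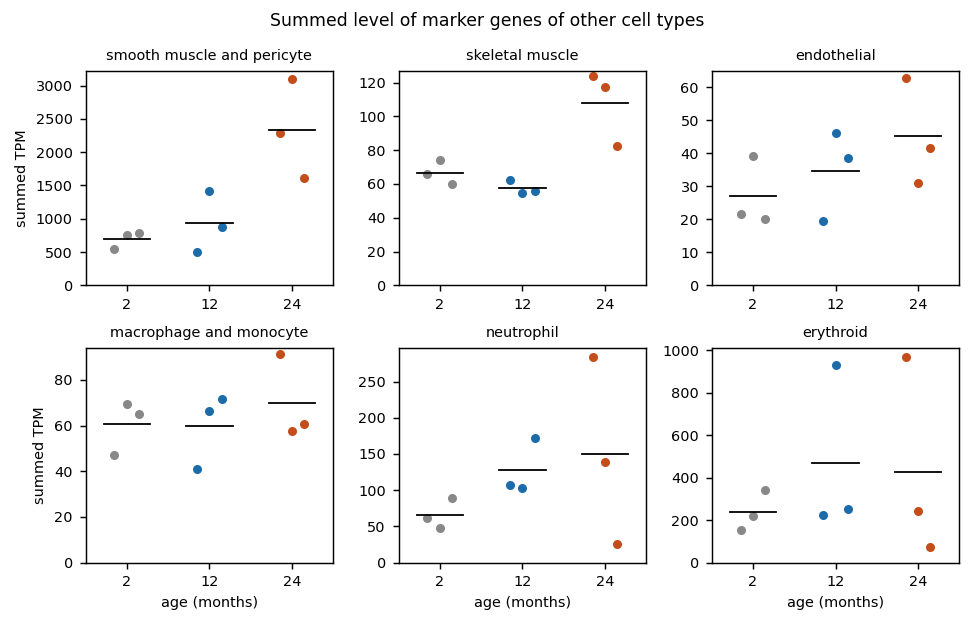
Summed TPM of the marker genes of 6 other cell types in each library against age; points are libraries and bars are means of 3. Smooth muscle and skeletal muscle markers are higher in every 24-month library than in any 12-month library, and the sums of the other 4 lists overlap between the ages.

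The marker sums are taken over all members of a list, kept or not. The skeletal muscle sum was 62.1, 54.5 and 55.9 TPM at 12 months and 124, 117 and 82.5 TPM at 24 months, from 16 genes, of which 8 passed the filter, Des among them. Endothelial markers summed to 19.4, 46.2 and 38.6 TPM and 62.9, 30.95 and 41.6 TPM, and macrophage markers to 40.9, 66.4 and 71.7 TPM and 91.5, 57.8 and 60.5 TPM. Neutrophil markers summed to 107, 103 and 172 TPM and 284, 139 and 26.1 TPM, and erythroid markers, nearly all haemoglobin, to 223, 928 and 252 TPM and 966, 243 and 73.7 TPM. The ages overlapped for the last 4 sums, and library 1 of 24 months and library 2 of 12 months were the highest for haemoglobin. Megakaryocyte markers were lower without overlap, at 14.96, 14.2 and 14.8 TPM and 6.39, 4.89 and 10.8 TPM, and so were Schwann and neural markers, at 411, 357 and 425 TPM and 256, 293 and 325 TPM. Ctsw, cathepsin W of T and NK cells, was called lower at 55.7, 37.9 and 58.5 TPM and 18.4, 18.2 and 23.3 TPM (-1.29 ± 0.22, adjusted p = 0.0273). Its gene overlaps Fibp, which stood at 77.5 and 63.6 TPM on average, and the only other kept member of its list, Trac, was at 6.12, 12.9 and 12.7 TPM and 7.77, 12.7 and 7.16 TPM.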

How the data were processed

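The authors deposited 1 log2 value per gene symbol and library, and per the submitters' processing notes they used Salmon and the build GRCm38.p6; the sources used here do not give the version, the annotation, the step from transcripts to genes or the use of strand. Per the labels' protocols each sample held 500 to 1000 sorted cells, a low-input kit made the cDNA, and paired reads of 76 bases gave about 45000000 mapped reads per sample on average. Removing the log and an offset of 1 gives columns that sum to 1000000, so the values are log2(TPM + 1), which keeps no depth per library; no count test or interval was used. Genes at 1 TPM in at least 3 of 9 libraries were kept (14501 of 53607 rows; 26 rows hold a date in place of a symbol). A model with 3 ages was fitted with limma 3.58.1 in R 4.3.3 (eBayes, variance trend on intensity, two-sided, residual degrees of freedom 6), and tested on simulated data. The column headers carry no replicate number, so the numbers 1 to 3 given to the libraries of each age follow the column order and pair nothing.

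The comparison and the 59 gene lists (1090 genes, 914 kept; no mast cell marker passed the filter) were chosen with earlier results of these data known, so lists are described by counts and medians and not tested. Named genes were up to 12 per direction of largest difference among called genes without overlap, the 4 genes of smallest p on each list and the gate genes, leaving out gene models, ribosomal protein genes, pseudogenes, small RNAs and mitochondrial genes; others were picked after their values were seen, and some list genes are not reported here. Alternatives changed the offset, filter, scaling, variance model, weights, libraries in the fit and threshold; 2 more, protein-coding genes alone and values freed of trends on GC content and length, were added after seeing the data. Positions came from GENCODE M21, to which 98.9% of rows matched, and upstream sequence from RefSeq on GRCm38.p6, cut to the 250 bases before the start; the interferon, NF-kB, CArG and cAMP motifs were planned and the others were not. Every window of a gene was searched on both strands, and those of the same motif may overlap.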

Additional observations from a re-analysis of the deposited data

How the results depend on the processing

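All 66 called genes had the same direction under every setting that tested them. Their values did not overlap between the ages, so only the changes of scaling and the removal of GC and length trends could have reversed a direction. The number called varied widely. With 1 library left out it ran from 2, without library 2 of 24 months, to 345, without library 3 of 24 months, with 0 to 151 higher and 2 to 194 lower. An offset of 0.1 TPM gave 43 calls (28 lower), median-of-ratios scaling 100 (82 lower), quantile normalization 70 lower, the 5 TPM filter 35 higher, and array quality weights 336 (160 higher, 176 lower). The threshold of 0.10 gave 239 (100 higher, 139 lower), protein-coding genes alone 129 (50 and 79), and removal of GC and length trends 119 (87 lower). Without an intensity trend in the variance limma called 4 (1 higher, 3 lower), and with only the 6 libraries 2 (0 higher, 2 lower). With no filter it called 0 of 33101 genes, while 2808 had an unadjusted p under 0.05, against 2051 in the kept set. The cause of these shifts was not tested, apart from the fewer libraries or other gene sets that the settings themselves bring. The 57 called genes with a gene-like name passed in 9 to 22 of the alternatives, Zbp1 in the fewest and Egln1 and Selenbp1 in the most. Of the list medians described, hypoxia stayed between -0.85 and -0.52, the stress response between -0.76 and -0.43, NF-kB between 0.68 and 1.01, interferon between 0.37 and 1.11 and cholesterol between 0.41 and 0.59, while hypertrophic chondrocyte genes reached -0.05 without library 2 of 12 months. With 1 library left out, 45 of the 58 list medians moved by over 1.5 times or changed sign, 12 of them changing sign. Among those described, smooth muscle ran from 0.96 to 1.93, chemokines from 0.85 to 1.76, osteoclast-regulating cytokines from 0.18 to 0.91, mitosis from 0.36 to 0.75, DNA replication from 0.21 to 0.57, osteoblast genes from 0.24 to 0.53, acute phase from 0.16 to 0.59, chondrocyte genes from -0.48 to -0.06 and class II from -0.65 to -0.19. Only some of the uncalled genes were followed through the settings one by one, and 5 of these changed sign with a library left out. Their ranges were -0.013 to 0.44 for Itgav, -0.38 to 0.655 for Thy1, -0.074 to 0.67 for Enpep, -0.78 to 0.052 for Cd74 and -0.48 to 0.0065 for Trac, which was also at 0.13 with array quality weights. Many other uncalled genes changed sign too. Over all kept genes 8323 were positive, against 7785 without library 2 of 12 months and 9091 without library 1 of 24 months. No paired analysis was possible because the deposited columns carry no replicate number, and the replicate block planned for that case was not run.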

Other observations

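The called genes not described above were all lower at 24 months, and they share no list. Hax1, a mitochondrial protein that guards against cell death, stood at 206, 169.7 and 184 TPM at 12 months and 80.1, 107 and 105 TPM at 24 months (-0.94 ± 0.16, adjusted p = 0.0267). Angptl6, a secreted relative of the angiopoietins, stood at 23.3, 9.91 and 20.6 TPM and 3.83, 3.35 and 4.75 TPM (-1.85 ± 0.31, adjusted p = 0.0273), and Adarb1, an enzyme that edits adenosines in RNA, differed by -1.21 ± 0.22 (adjusted p = 0.0383). Impa2, an inositol phosphatase, had -0.92, Ier5l, a relative of an immediate early gene, -0.90, Prelid2, of a family that moves lipids in mitochondria, -1.45, M1ap, a protein of meiosis, -1.5, and Gng13, a G protein subunit, -1.98. Across the settings the difference of Gng13 ran from -3.62 to -0.82. Its gene overlaps Chtf18 on the opposite strand, which stood at 2.18 TPM at 12 months and 5.30 TPM at 24 months on average. Aire, best known for showing tissue proteins in the thymus, was at 2.69, 3.03 and 2.61 TPM at 12 months and at most 0.369 TPM in each 24-month library (-1.65 ± 0.30, adjusted p = 0.0379), but it overlaps Dnmt3l on the opposite strand, which also stood lower, at 3.58 and 0.997 TPM on average. Of these ages only 12 months met the filter of 1 TPM in Aire, which favours such a difference. Together with the genes of the report these make the 57 called genes with a gene-like name, 19 higher and 38 lower; the other 9, 3 higher and 6 lower, are gene models or of the classes not named.

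Acute phase and complement genes had 12 of 18 positive with a median of 0.41, against 0.07 over all kept genes, and of 0.16 without library 1 of 12 months; besides Saa3, which was called, Lcn2, an iron-scavenging lipocalin, lay at 50.4, 12.6 and 66.5 TPM at 12 months and 22.8, 3.51 and 2.16 TPM at 24 months with overlap. Other lists lay nearer to the median of all kept genes. The NRF2 and antioxidant list had a median of 0.12, the heat shock list 0.20, the lysosome and autophagy list 0.08, the sirtuins 0.20, the collagen folding and crosslinking list 0.05 and the chromatin and splicing list 0.10, where Qk was the only call. Of 15 kept positional limb factors 13 were positive with a median of 0.27, while Shox2 and Pitx1, factors of limb patterning, lay below 12 months without overlap at -0.76 (adjusted p = 0.233) and -0.48 (adjusted p = 0.291).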
